A study of Mus musculus with 4 samples.

Results

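The collagen genes are the protein-coding genes whose symbol is Col, a number, a and a number, each of which encodes 1 chain of a collagen. Members were taken by symbol, with an FPKM (fragments per kilobase of gene length and per M library reads, where 1 M is 1e6) above 0 in at least 1 library, which gave 42 of the 35275 genes in the table. The table holds 44 collagen genes, and the other 2, Col9a1 and Col19a1, are listed at 0 in all 4 libraries. Of the 42 members, 11 encode fibrillar chains, 6 chains of basement membrane collagen IV and 6 chains of collagen VI. RNA was sequenced from dissected lung tumours of Balb/c mice, in 2 wild-type libraries (Nrf2 +/+) and 2 knockout libraries (Nrf2 -/-). Mice of both genotypes had been given vinyl carbamate, a carcinogen that starts lung tumours, with 2 or 4 doses of 16 mg/kg. Dissection followed 40 to 44 weeks after the carcinogen, and 3 to 4 tumours were combined for each RNA sample. The labels do not break doses, weeks or tumour numbers down by sample, and they name neither an allele restricted to a cell type nor the sex of the animals.

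Collagens are extracellular proteins in which 3 chains wind into a triple helix, and regularly spaced glycine is what lets the chains pack. Fibrillar collagens (types I, III and V in lung stroma) are secreted mainly by fibroblasts and assemble into rope-like fibrils that carry load. Collagen IV chains form the sheet-like network of the basement membrane under epithelium and around vessels. Collagen VI builds beaded microfilaments between the basement membrane and the stromal fibrils, and its main form contains the products of Col6a1, Col6a2 and Col6a3 together. Nfe2l2 encodes Nrf2, which is best known as an activator of antioxidant and detoxification genes and binds antioxidant response elements (ARE) together with small MAF proteins.

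The 3 classes can be told apart in the coding sequence, where each glycine codon (GGN) opens a triplet of codons. Runs of at least 6 such triplets were counted in the longest coding transcript of each gene. In the 11 fibrillar genes the longest run had 216 to 344 triplets, and a gene had 2 or 3 runs. The 6 collagen IV genes had 21 to 27 runs each, the longest of 39 to 66 triplets, with short breaks between them. Collagen VI chains had 103 to 110 triplets in runs, against 1024 to 3283 codons in all. Below is 1 exon from each of the chains the results turn on, picked at the commonest length of its class, 54 or 63 bases. Neither length is limited to 1 class, as 15 collagen VI exons had 54 bases and 6 fibrillar exons 63. The glycine codon that opens each triplet is in capitals. Coordinates are in the GRCm38 build.
Col1a1 (chr11:94939904-94939957, plus strand, 54 bases): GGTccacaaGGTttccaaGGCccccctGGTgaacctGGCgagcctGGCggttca
Col3a1 (chr1:45325360-45325413, plus strand, 54 bases): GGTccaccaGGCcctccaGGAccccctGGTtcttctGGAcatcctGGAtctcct
Col6a1 (chr10:76717795-76717857, minus strand, 63 bases): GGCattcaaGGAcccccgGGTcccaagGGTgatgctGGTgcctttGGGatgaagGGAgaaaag
Col6a2 (chr10:76610160-76610222, minus strand, 63 bases): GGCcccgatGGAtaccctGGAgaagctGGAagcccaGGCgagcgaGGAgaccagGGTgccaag
Col6a3 (chr1:90793014-90793076, minus strand, 63 bases): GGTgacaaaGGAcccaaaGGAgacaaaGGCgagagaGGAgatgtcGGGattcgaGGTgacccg
The first pair are coding exons of fibrillar genes and the other three are coding exons of collagen VI genes, each a whole number of triplets. Of 509 fibrillar exons lying inside runs, 302 (59.3%) were 54 bases long. Of 88 such collagen VI exons, 40 (45.5%) were 63 bases long. Whole triplets made up 508 of the 509 fibrillar exons and 88 of the 88 collagen VI exons, but 57 of 127 collagen IV exons (44.9%). The collagen IV stretches below each hold a break, the longer stretch of lower-case bases where the spacing is lost.
Col4a1 (chr8:11235141-11235200, minus strand, 60 bases): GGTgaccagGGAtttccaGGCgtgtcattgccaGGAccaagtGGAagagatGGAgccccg
Col4a2 (chr8:11415964-11416029, plus strand, 66 bases): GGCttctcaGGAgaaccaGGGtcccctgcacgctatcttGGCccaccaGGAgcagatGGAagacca
The break adds 6 bases in Col4a1 and 12 bases in Col4a2, and both stretches lie in coding sequence.

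**Figure D1:**
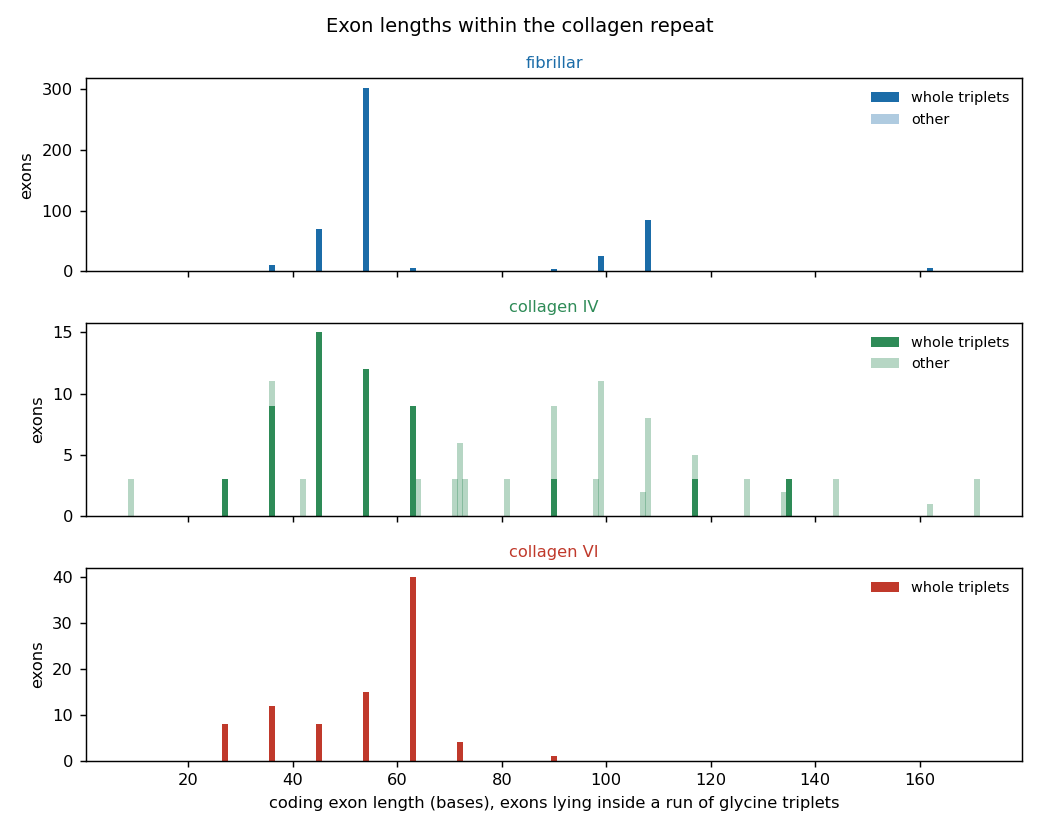
Number of coding exons (y axis) by exon length in bases (x axis) for exons that lie inside a run of glycine triplets, with 1 panel per class and dark bars for exons of whole triplets. Fibrillar exons pile up at 54 bases (302 of 509) and collagen VI exons at 63 bases (40 of 88), while collagen IV exons are spread over many lengths.

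From what 1 read is worth in the FPKM values, wild type 1 and 2 had 21.66 and 21.22 M reads in all, and knockout 1 and 2 had 17.98 and 16.89 M. Nfe2l2 was at 96.3 and 87.9 FPKM in wild-type tumours and at 3.66 and 2.96 FPKM in knockout tumours, the direction the labels give. Sftpc, the surfactant gene that marks alveolar type 2 cells, stood between 75159 and 90474 FPKM, so a defining marker of the labelled tissue was present. Collagen genes took 0.431%, 0.308%, 0.287% and 0.432% of the recovered reads in wild type 1 and 2 and knockout 1 and 2. Their summed FPKM was 1418 and 1026 against 1010 and 1476. Total collagen thus overlapped between genotypes, with wild type 1 and knockout 2 high and the other pair low.

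Of the 42 members, 26 reached an FPKM of 1 in 2 or more libraries and were tested among the 13147 genes that did. Of these 26, 1 chain, Col6a1, was called at an adjusted p under 0.05 (limma on log2(FPKM + 1), Benjamini-Hochberg over all genes tested), where 0.114% of all genes were called, 0.0761% as higher and 0.0380% as lower in the knockout. By limma-voom on the recovered reads 1 chain, again Col6a1, was called, against 0.0456% of all genes. Before adjustment, 5 chains had p under 0.05 (19.2%), against 15.4% of all genes. Higher in the knockout among these 5 were Col6a1, Col6a2 and Col13a1 (higher in 8.36% of all genes), and lower were Col12a1 and Col4a5 (lower in 7.01%). Both knockout libraries lay above both wild-type libraries for 5 chains (19.2%, against 22.7% of all genes) and below them for 4 (15.4%, against 25.4%). The log2 fold change was positive in 12 chains (49.2% of all genes) and negative in 14 (50.8% of all genes), with a median of -0.03, against -0.00 over all genes. Apart from the 1 call, the shares for collagen genes as a whole were near or below those of the table. The number of called chains changed when some single libraries were left out, and so did the number called over all genes. Such fits keep 1 library for 1 genotype.

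**Figure D2:**
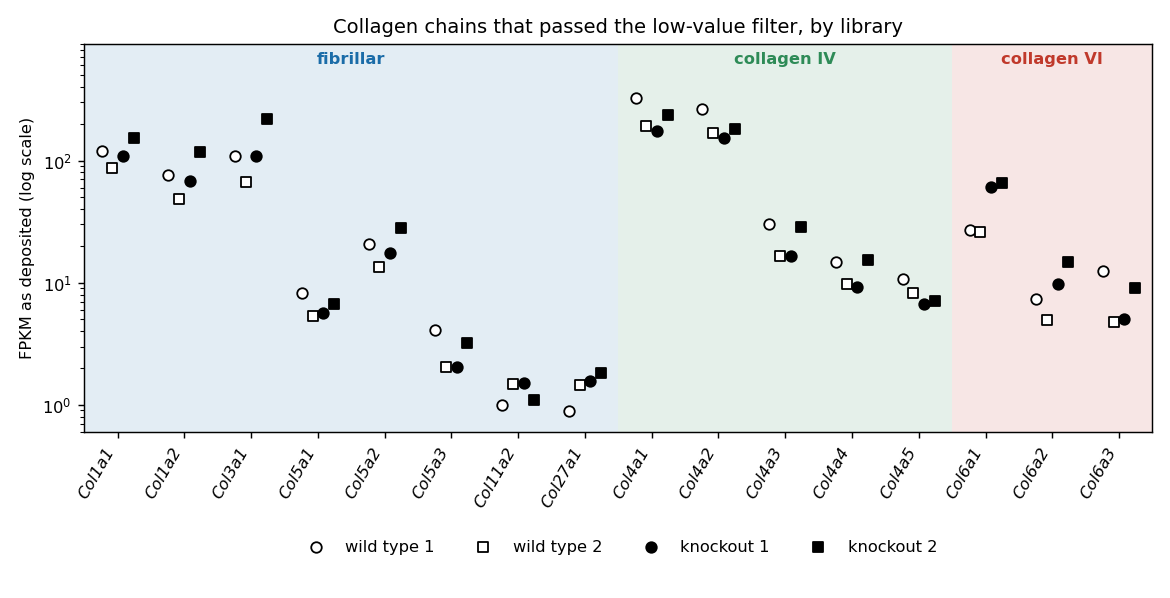
FPKM on a log scale (y axis) of the 16 fibrillar, collagen IV and collagen VI chains that passed the low-value filter (x axis), with open symbols for the 2 wild-type and filled symbols for the 2 knockout libraries. Col6a1 has both knockout libraries (61.3 and 65.3) far above both wild-type libraries (27.03 and 25.88), while most other chains overlap.

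Among the collagen VI chains, Col6a1 rose in knockout tumours. Of the 6 members 3 were tested, 2 with a positive and 1 with a negative log2 fold change, and their median was 0.89, against -0.00 over all genes. Col6a1 (ENSMUSG00000001119, minus strand of chromosome 10, 76708792 to 76726168) was at 27.03 and 25.88 FPKM in wild type 1 and 2 and at 61.3 and 65.3 FPKM in knockout 1 and 2. The libraries of each genotype lay close together and the genotypes were far apart. Its log2 fold change was 1.23 ± 0.10 (SE, n = 2 each, 95% interval 0.98 to 1.48; limma adjusted p = 0.0255), a ratio of mean FPKM of 2.39. The values correspond to 1471 and 1380 reads against 2767 and 2771, and limma-voom on these reads gave an adjusted p of 0.0351. The call was lost without wild type 1 (limma adjusted p = 0.0786) or wild type 2 (0.0955), without the intensity trend (0.0583) and without the low-value filter (0.210), while the fold change stayed between 1.01 and 1.27 in the alternatives run.

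Col6a2, whose product pairs with that of Col6a1, was at 7.35 and 4.95 FPKM in wild-type tumours and at 9.68 and 14.9 FPKM in knockout tumours. Both knockout libraries lay above both wild-type libraries, and the spread within a genotype was wider than for Col6a1. The log2 fold change was 0.89 ± 0.24 (SE, n = 2 each; limma adjusted p = 0.209) and did not pass the test. Without knockout 1, so with knockout 2 alone for its genotype, it was 1.17, and without knockout 2 it was 0.60.

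Col6a3 encodes the long partner chain, with 3283 codons against 1024 for Col6a1. It was at 12.5 and 4.81 FPKM in wild-type tumours and at 5.002 and 9.05 FPKM in knockout tumours. The genotypes overlapped fully, with wild type 1 and knockout 2 high. The log2 fold change was -0.19 ± 0.42 (SE, n = 2 each; 95% interval -1.22 to 0.84; limma adjusted p = 0.869), and it was positive without wild type 1 (0.42) or knockout 1 (0.18). The remaining members, Col6a4, Col6a5 and Col6a6, encode alternatives to that chain and were too low to test. Col6a5 had 3, 1 and 1 reads in wild type 1 and 2 and knockout 1, and 59 reads in knockout 2, where it reached 0.578 FPKM. Col6a4 and Col6a6 reached at most 0.0516 and 0.0168 FPKM.

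The log2 fold changes of the 3 tested collagen VI chains differed in sign, and ratios within a library show how the chains stood to each other. Per base of the longest coding transcript, Col6a1 to Col6a3 was 2.85 and 7.07 in wild type 1 and 2. It was 16.1 and 9.47 in knockout 1 and 2. Both knockout ratios exceeded both wild-type ratios, but wild type 1 and 2 differed from each other as well. Col6a2 to Col6a3 gave 1.22 and 2.14 against 4.02 and 3.41, likewise without overlap. Col6a1 to Col6a2 overlapped, at 2.33 and 3.31 against 4.005 and 2.78. These ratios are given without a test, and an exact two-sided permutation test over 4 libraries could not give a p below 0.333.

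**Figure D3:**
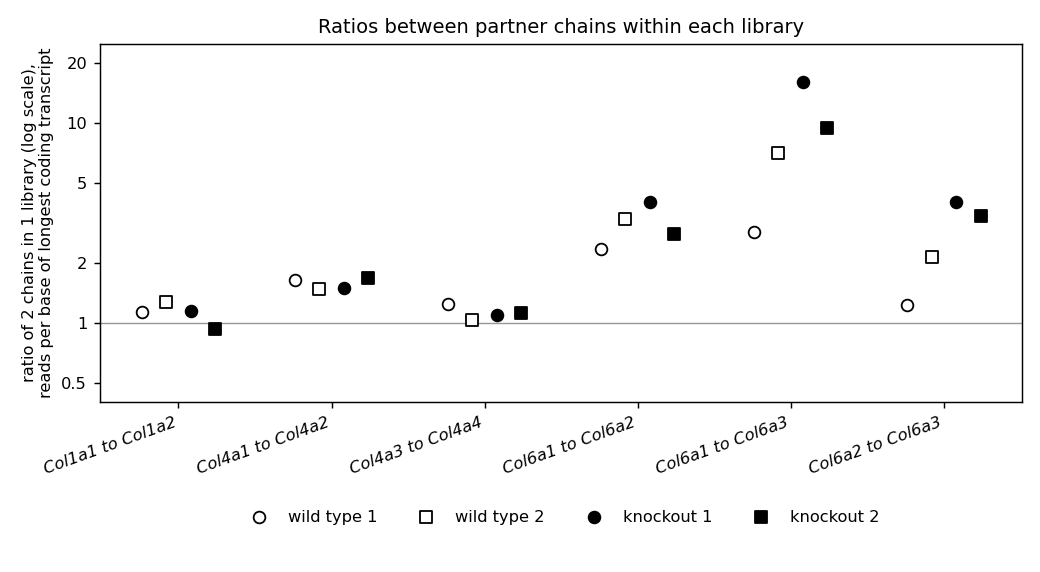
Ratio of 2 chains within a library, in reads per base of longest coding transcript on a log scale (y axis), for 6 pairs of chains (x axis), with 1 symbol per library. Col4a1 to Col4a2 runs from 1.48 to 1.68 over the 4 libraries, Col1a1 to Col1a2 from 0.930 to 1.27, and Col6a1 to Col6a3 from 2.85 to 16.1.

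Col6a1 and Col6a2 are neighbours, on the same strand of chromosome 10 and 85.2 kb apart, and Col6a3 lies on chromosome 1. No exon of these 3 genes overlapped an exon of another annotated gene. The windows from 250 bases before to 50 bases after their starts (RefSeq, GRCm38.p6) are shown because these genes lie side by side and differ in the motifs a search found.
Col6a1 (chr10:76725995-76726294, minus strand): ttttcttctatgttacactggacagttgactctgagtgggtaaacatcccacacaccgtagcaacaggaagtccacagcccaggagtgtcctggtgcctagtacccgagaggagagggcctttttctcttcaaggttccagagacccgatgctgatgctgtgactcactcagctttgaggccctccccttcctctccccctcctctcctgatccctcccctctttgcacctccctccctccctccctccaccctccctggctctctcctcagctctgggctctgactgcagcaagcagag
Col6a2 (chr10:76623355-76623654, minus strand): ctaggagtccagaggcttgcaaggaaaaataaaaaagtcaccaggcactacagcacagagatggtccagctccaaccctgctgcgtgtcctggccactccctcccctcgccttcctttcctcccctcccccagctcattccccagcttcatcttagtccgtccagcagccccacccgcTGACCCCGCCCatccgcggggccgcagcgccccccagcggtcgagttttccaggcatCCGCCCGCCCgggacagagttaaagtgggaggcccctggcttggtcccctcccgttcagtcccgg
Capitals mark matches, searched on both strands. The ARE core was read as TGACNNNGC. A GC box was read as GGGCGG on either strand. The CCAAT box and the TATA box, written TATAAA, were the other two motifs searched. The Col6a1 window held no match to any of the 4, and that of Col6a3 likewise held none. The Col6a2 window held 1 ARE core and 3 GC boxes, of which 1 overlaps the ARE core and the other pair overlap each other. A second Col6a2 window held 1 GC box. An ARE core was found in 12.4% of all 32544 windows and in 7 of the 35 collagen windows (20%), which belong to 33 of the genes. GC boxes were found in 35.9% of all windows and 65.7% of collagen windows, CCAAT boxes in 37.4% and 34.3%, and TATA boxes in 13.6% and 14.3%. A match describes letters in a window and is not a measured binding site.

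Fibrillar chains had no call. Of the 11 members, 8 were tested, 6 with a positive and 2 with a negative log2 fold change, and their median was 0.34, against -0.00 over all genes. It was 0.16 without wild type 2 and 0.14 without knockout 2. By limma 0 of the 8 passed at an adjusted p under 0.05 and 0 had an unadjusted p under 0.05, and limma-voom called 0. Both knockout libraries were above both wild-type libraries for 2 of the 8 (25%, against 22.7% of all genes), Col3a1 and Col27a1.

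Col1a1 and Col1a2 encode the chains of collagen I, the most abundant fibril protein of connective tissue. Col1a1 (chromosome 11, 94936224 to 94953042) was at 120 and 86.5 FPKM in wild-type tumours and at 109.9 and 153 FPKM in knockout tumours. Col1a2 was at 75.9 and 48.8 FPKM against 68.5 and 118 FPKM. In both genes wild type 2 was lowest and knockout 2 highest, and wild type 1 exceeded knockout 1. Their log2 fold changes were 0.34 ± 0.22 and 0.55 ± 0.30 (SE, n = 2 each; limma adjusted p = 0.491 and 0.437). Per base of the longest coding transcript, Col1a1 to Col1a2 was 1.13, 1.27, 1.15 and 0.930 in wild type 1 and 2 and knockout 1 and 2.

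Col3a1 encodes the single chain of collagen III, which mixes into collagen I fibrils in elastic organs. It was at 108 and 67.3 FPKM in wild-type tumours and at 109 and 221 FPKM in knockout tumours. The genotypes did not overlap, but wild type 1 and knockout 1 were nearly equal and the gap rested on wild type 2 and knockout 2. The log2 fold change was 0.86 ± 0.36 (SE, n = 2 each; limma adjusted p = 0.335). It was 1.36 without knockout 1, which leaves knockout 2 alone for its genotype, and 0.36 without knockout 2. Col3a1 lies tail to tail with Col5a2 on chromosome 1, with 24.6 kb between them.

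Collagen V, which seeds fibrils and limits their width, is made from the products of Col5a1, Col5a2 and Col5a3. Col5a2 was at 20.7 and 13.6 FPKM against 17.4 and 27.8 FPKM, in the same order of libraries as the collagen I genes. Col5a1 was at 8.22 and 5.37 FPKM against 5.68 and 6.67 FPKM, and Col5a3 at 4.13 and 2.03 FPKM against 2.04 and 3.22 FPKM. Those 2 genes were highest in wild type 1, and all 3 overlapped between genotypes. The log2 fold changes were 0.37 ± 0.27, -0.10 ± 0.20 and -0.14 ± 0.29 for Col5a2, Col5a1 and Col5a3 (SE, n = 2 each; limma adjusted p = 0.546, 0.856 and 0.859). The ratio of Col5a2 to Col5a1, per base of the longest coding transcript, was 2.01 and 2.02 in wild-type tumours and 2.45 and 3.33 in knockout tumours.

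The other fibrillar genes were low. Col11a2, a chain of the cartilage fibril collagen XI, was at 0.993 and 1.47 FPKM against 1.51 and 1.09 FPKM. Col27a1, a fibrillar chain with a shortened helix, was at 0.883 and 1.44 FPKM against 1.58 and 1.81 FPKM. Col11a2 overlapped between genotypes and Col27a1 did not, with log2 fold changes of 0.05 ± 0.20 and 0.33 ± 0.19 (SE, n = 2 each; limma adjusted p = 0.930 and 0.462). The other 3 fibrillar members were not tested, of which Col24a1 reached 0.911 FPKM, Col11a1 0.179 FPKM and Col2a1, the main cartilage collagen, 0.0347 FPKM.

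Collagen IV chains had no call either. Of the 6 members 5 were tested, 0 with a positive and 5 with a negative log2 fold change, and their median was -0.30. It was 0.087 without wild type 1, -0.56 without wild type 2 and -0.09 without knockout 1. By limma 0 of the 5 passed at an adjusted p under 0.05, and limma-voom called 0. Col4a5 was the 1 chain at an unadjusted p under 0.05 (20% lower, against 7.01% of all genes). Col4a1 and Col4a2 encode the chains found in nearly every basement membrane, and had the highest mean FPKM of the fibrillar, collagen IV and collagen VI chains, on the deposited scale and per base of the longest coding transcript. Col4a1 (chromosome 8, 11198423 to 11312826) was at 328 and 190 FPKM in wild-type tumours and at 175 and 234 FPKM in knockout tumours. Col4a2 was at 262 and 168 FPKM against 154 and 182 FPKM. Wild type 1 stood above the other 3 libraries in both genes, and the genotypes overlapped. The log2 fold changes were -0.30 ± 0.28 and -0.33 ± 0.22 (SE, n = 2 each; limma adjusted p = 0.634 and 0.530), and that of Col4a1 was 0.09 without wild type 1.

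The ratio of Col4a1 to Col4a2 was the steadiest of the 10 ratios computed. Per base of the longest coding transcript it was 1.64 and 1.48 in wild-type tumours and 1.49 and 1.68 in knockout tumours, and its highest value was 1.135 times its lowest. Both genes are read outwards from 1 point on chromosome 8, where their annotated starts overlap by 22 bases, so that their windows share sequence. The Col4a2 window is shown because it covers this shared start and held 1 ARE core, 3 GC boxes and 1 CCAAT, in capitals.
Col4a2 (chr8:11312555-11312854, plus strand): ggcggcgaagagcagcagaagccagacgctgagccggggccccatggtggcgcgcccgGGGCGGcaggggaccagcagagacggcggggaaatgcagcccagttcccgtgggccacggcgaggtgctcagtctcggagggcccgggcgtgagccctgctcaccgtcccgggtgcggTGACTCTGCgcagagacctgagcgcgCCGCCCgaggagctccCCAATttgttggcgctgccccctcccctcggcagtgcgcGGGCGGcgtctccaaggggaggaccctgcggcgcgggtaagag
The Col4a1 window, read on the other strand and shifted, held 1 GC box, 1 CCAAT and no ARE core.

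Col4a3, Col4a4 and Col4a5 form the tighter collagen IV network known from kidney glomeruli and alveoli. Col4a3 was at 30.4 and 16.6 FPKM in wild-type tumours and at 16.7 and 28.4 FPKM in knockout tumours. Col4a4 was at 14.9 and 9.75 FPKM against 9.24 and 15.4 FPKM. Wild type 1 and knockout 2 were high and the other pair low in both genes, with log2 fold changes of -0.04 ± 0.33 and -0.01 ± 0.27 (SE, n = 2 each; limma adjusted p = 0.966 and 0.991). The ratio of Col4a3 to Col4a4 stayed between 1.03 and 1.24 per base. These genes lie head to head, 71 bases apart on chromosome 1. A link of position to ratio was not tested, for this pair or for Col4a1 and Col4a2. Of the exon bases of Col4a3, 5.6% are shared with a transcript on the opposite strand, C430014B12Rik, and its reads cannot be told apart here.

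Col4a5 was at 10.7 and 8.24 FPKM in wild-type tumours and at 6.68 and 7.13 FPKM in knockout tumours. Both knockout libraries lay below both wild-type libraries. The log2 fold change was -0.39 ± 0.15 (SE, n = 2 each; limma unadjusted p = 0.0395, adjusted p = 0.302) and did not pass the test. Its neighbour on chromosome X, Col4a6, which starts 1308 bases away on the other strand, reached 0.131 FPKM and was not tested.

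**Figure D4:**
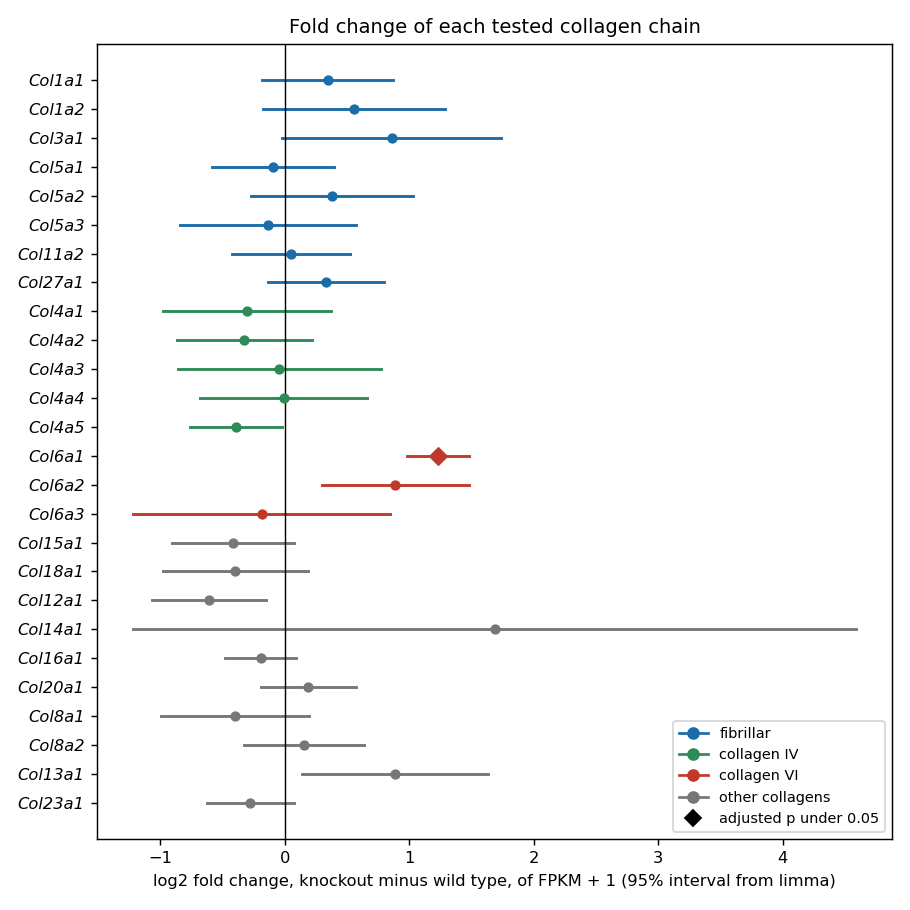
Log2 fold change of FPKM + 1, knockout minus wild type (x axis), of the 26 tested chains (y axis), with 95% intervals from limma and colours for the class. Col6a1, drawn as a diamond, was the called chain, at 1.23, and the intervals of 21 of the 26 chains include 0.

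Summed by class, fibrillar chains were at 339.5 and 226.7 FPKM in wild-type tumours and at 316.5 and 532.8 FPKM in knockout tumours. Collagen IV chains summed to 646 and 393 FPKM against 361 and 468 FPKM, and collagen VI chains to 46.9 and 35.7 FPKM against 76.0 and 89.8 FPKM. The sums of the fibrillar and collagen IV classes overlapped between genotypes, and that of collagen VI did not. Most of the collagen VI sum was Col6a1, at 27.03 and 25.88 FPKM against 61.3 and 65.3 FPKM. Neither the sum nor the share of this class is thus separate from the result for that chain. As a share of all collagen FPKM, fibrillar chains held 23.9% and 22.1% against 31.4% and 36.1%. The share of collagen IV was 45.6% and 38.3% against 35.7% and 31.7%, and that of collagen VI 3.31% and 3.48% against 7.53% and 6.09%. In each of the 3 classes the shares of the genotypes did not overlap. This was not limited to these classes, as Col15a1 and Col18a1 together held 23.3% and 31.6% against 21.0% and 19.8%. Shares that sum to a whole are not independent of each other and were not tested. On the scale of the longest coding transcript the shares differed in size (17.4%, 15.8%, 23.2% and 26.1% for fibrillar chains in wild type 1 and 2 and knockout 1 and 2) and still did not overlap for any of the 3 classes.

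Libraries of 1 genotype often differed from each other. Of the 26 tested chains, both knockout libraries lay above both wild-type libraries for 5 and below them for 4 (19.2% and 15.4%, against 22.7% and 25.4% of all genes), and the others overlapped. Wild type 2 was the lowest library for 13 of the 26 chains, against 19.7% of all genes tested, and knockout 2 the highest for 10, against 30.1%. Wild type 1 was the highest for 12, against 28.0%. Lowest in wild type 2 and highest in knockout 2 were 8 chains (30.8%, against 12.2% of all genes), namely Col1a1, Col1a2, Col3a1, Col5a2, Col6a1, Col6a2, Col14a1 and Col13a1. Highest in wild type 1 and lowest in knockout 1 were 6 chains (23.1%, against 17.4%), namely Col4a1, Col4a2, Col4a5, Col18a1, Col12a1 and Col16a1. The first group holds 4 fibrillar and 2 collagen VI chains with Col14a1 and Col13a1, and the second 3 collagen IV chains with Col18a1, Col12a1 and Col16a1. Both orders run in the direction of a genotype difference. The genotypes did not overlap for Col3a1, Col6a1, Col6a2 and Col13a1 in the first group and for Col4a5, Col12a1 and Col16a1 in the second. The genes were sorted by these orders after their values were seen, so the counts are a description.

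**Figure D5:**
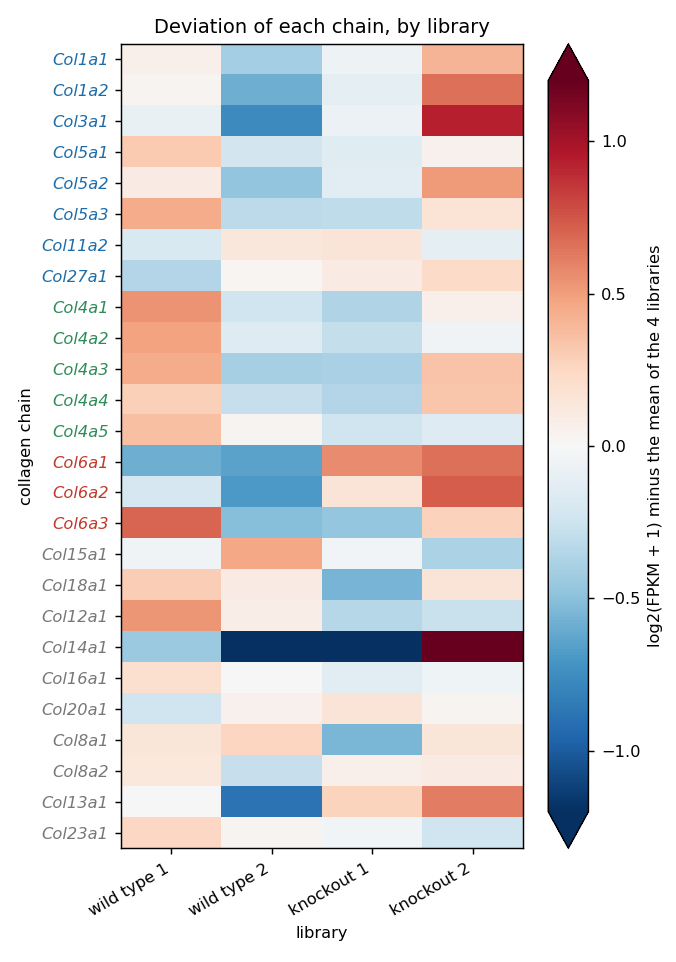
Log2(FPKM + 1) of each of the 26 tested chains (y axis) in each library (x axis), minus its mean over the 4 libraries, as colour, with red above and blue below the mean and the colour scale ending at 1.2 either way. Collagen I, III and VI chains are mostly blue in wild type 2 and red in knockout 2, collagen IV chains are red in wild type 1, and Col14a1 runs past the scale.

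Among the other basement membrane zone collagens, Col15a1 and Col18a1 encode the multiplexins, which carry an endostatin-type end piece. Col15a1 was at 65.3 and 93.2 FPKM in wild-type tumours and at 65.9 and 51.5 FPKM in knockout tumours. Col18a1 was at 266 and 231 FPKM against 146 and 241 FPKM. Both genes overlapped between genotypes, and different libraries were low in them, knockout 2 in Col15a1 and knockout 1 in Col18a1. The log2 fold changes were -0.41 ± 0.20 and -0.40 ± 0.24 (SE, n = 2 each; limma adjusted p = 0.394 and 0.473).

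Fibril-associated collagens sit on the surface of fibrils and link them to other matrix. Col14a1 was at 3.87 and 1.80 FPKM in wild-type tumours and at 1.90 and 47.8 FPKM in knockout tumours. Knockout 2 alone was high, at 12.3 times the next library, with 4330 reads against 183 in knockout 1. The log2 fold change was 1.69 ± 1.19 (SE, n = 2 each; limma adjusted p = 0.543), and it was -0.35 without knockout 2 and 3.72 without knockout 1. Among all genes tested, 8 were at least 10 times as high in knockout 2 as in every other library, against 1 in wild type 1, 0 in wild type 2 and 1 in knockout 1.

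Col12a1, a close relative of Col14a1 found on fibrils under tension, was at 4.41 and 2.97 FPKM against 1.96 and 2.12 FPKM. Both knockout libraries lay below both wild-type libraries, and the log2 fold change was -0.61 ± 0.19 (SE, n = 2 each; limma unadjusted p = 0.0176, adjusted p = 0.246). Col16a1 also lay lower without overlap, at 25.7 and 22.4 FPKM against 20.2 and 21.5 FPKM (log2 fold change -0.19 ± 0.12, SE, n = 2 each; limma adjusted p = 0.476). Col20a1 was at 3.66 and 4.73 FPKM against 5.14 and 4.64 FPKM, with overlap and a log2 fold change of 0.19 ± 0.16 (SE, n = 2 each; limma adjusted p = 0.603). None of the 4 tested fibril-associated chains passed at an adjusted p under 0.05 in limma or limma-voom. Col12a1 was the 1 chain at an unadjusted p under 0.05 (25% lower, against 7.01% of all genes).

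Among the short-chain collagens, Col8a1 and Col8a2, which form networks around vessels, were tested. Col8a1 was at 2.89 and 3.21 FPKM against 1.42 and 2.90 FPKM, with knockout 1 apart from the other 3 libraries. Col8a2 was at 1.34 and 0.766 FPKM against 1.24 and 1.29 FPKM, with wild type 2 apart. The log2 fold changes were -0.40 ± 0.24 and 0.15 ± 0.20 (SE, n = 2 each; limma adjusted p = 0.481 and 0.749).

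Transmembrane collagens span the plasma membrane of the cell that makes them. Col13a1, found at cell junctions and neuromuscular synapses, was at 2.42 and 0.851 FPKM in wild-type tumours and at 3.11 and 4.25 FPKM in knockout tumours. The genotypes did not overlap, and the log2 fold change was 0.89 ± 0.31 (SE, n = 2 each; limma unadjusted p = 0.0271, adjusted p = 0.270). Col23a1 was at 8.49 and 7.15 FPKM against 6.79 and 5.77 FPKM, lower without overlap (log2 fold change -0.28 ± 0.14, SE, n = 2 each; limma adjusted p = 0.420).

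The other 16 members did not pass the low-value filter, and the highest FPKM among them was 1.21, of Col7a1 in 1 library. Col7a1, the anchoring fibril collagen of stratified epithelium, was at 0.677 and 0.926 FPKM against 1.21 and 0.930 FPKM, from 56 to 83 reads. Col28a1 reached 0.827 FPKM, Col9a3 0.659, Col10a1 0.301, Col17a1 0.194, Col9a2 0.128, Col26a1 0.094, Col25a1 0.0667 and Col22a1 0.0587 FPKM. Col10a1 and Col2a1 mark growing cartilage and Col17a1 marks basal cells. Of 8 cartilage markers 2 were tested, Sox9, which lung epithelium is also known to express, at 31.4 and 31.4 FPKM against 20.3 and 45.2 FPKM, and Chad, at 1.46 to 2.01 FPKM. Acan was listed at 0 in all 4 libraries, and Matn1, Matn3 and Cnmd reached at most 0.138 FPKM. Of 5 basal cell markers 0 were tested, and Krt5 reached 0.0270 FPKM.

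Levels of different genes can be compared only as far as the length behind each FPKM value is known. The recovered lengths equal the mean of the annotated transcript lengths for 26 of the 42 members, which counts short partial transcripts and makes FPKM higher than a full-length divisor would. For Col1a1 this mean is 1781 bases against 5930 for the longest coding transcript, so its FPKM is 3.33 times as high as on the latter, and over the 42 members the factor ran from 1.00 to 3.33. For 15 members, Col1a2, Col4a1, Col14a1 and Col18a1 among them, the length is the smallest that fits the values, so their reads and their values per base may be underestimated. Fold changes between libraries do not depend on the length, apart from the weight of the pseudocount.

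Genes that fold, process and bind collagens were counted in lists, none of which had a member called by limma or limma-voom. Of 20 genes for folding and modification in the endoplasmic reticulum, 19 were tested, 8 with a positive and 11 with a negative log2 fold change, with a median of -0.05. At an unadjusted p under 0.05 were 1 higher and 1 lower (5.26% each, against 8.36% and 7.01% of all genes). P4ha3, a prolyl hydroxylase subunit, was at 2.38 and 2.22 FPKM against 3.20 and 4.44 FPKM (log2 fold change 0.54; limma adjusted p = 0.254). P4ha2, another such subunit, was at 57.01 and 64.9 FPKM against 53.02 and 41.96 FPKM (log2 fold change -0.36; limma adjusted p = 0.320). Plod2, a lysyl hydroxylase that prepares cross-links, was at 3.96 and 3.97 FPKM against 4.63 and 8.62 FPKM (log2 fold change 0.57; limma adjusted p = 0.360).

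Of 14 genes for propeptide removal and cross-linking 9 were tested, 8 positive and 1 negative, with a median of 0.16. An unadjusted p under 0.05 was found for 2, both higher (22.2%, against 8.36% of all genes). Loxl1, a lysyl oxidase, was at 7.79 and 5.97 FPKM against 9.93 and 13.2 FPKM (log2 fold change 0.67; limma adjusted p = 0.207). Pcolce2, which helps cleave the C-terminal propeptide, was at 5.95 and 2.51 FPKM against 7.17 and 7.74 FPKM (log2 fold change 0.77; limma adjusted p = 0.314). Lox, the founding lysyl oxidase, was at 4.21 and 2.49 FPKM against 4.26 and 6.56 FPKM (log2 fold change 0.56; limma adjusted p = 0.369). Both knockout libraries lay above both wild-type libraries for 5 of the 9 tested (55.6%, against 22.7% of all genes), these 3 genes among them. The 3 were named for their small unadjusted p, which favours genes without overlap.

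Of 13 collagen receptor genes 9 were tested, 4 positive and 5 negative, with a median of -0.11 and 1 at an unadjusted p under 0.05 in each direction (11.1% each, against 8.36% higher and 7.01% lower among all genes). Itga2, a collagen-binding integrin chain of epithelial cells and platelets, was at 14.7 and 10.7 FPKM against 8.15 and 8.99 FPKM (log2 fold change -0.51; limma adjusted p = 0.259). Ddr2, a receptor kinase for fibrillar collagen on mesenchymal cells, was at 4.35 and 3.02 FPKM against 5.28 and 6.10 FPKM (log2 fold change 0.52; limma adjusted p = 0.268). Its epithelial relative Ddr1 was at 43.3 and 52.0 FPKM against 40.4 and 41.8 FPKM (log2 fold change -0.20; limma adjusted p = 0.480).

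Of 15 proteins that coat or organise fibrils 12 were tested, 8 positive and 4 negative, with a median of 0.32. An unadjusted p under 0.05 was found for 3, all of them higher (25%, against 8.36% of all genes). Dcn, the small proteoglycan decorin that binds collagen I, was at 20.2 and 18.6 FPKM against 29.6 and 30.5 FPKM (log2 fold change 0.61 ± 0.11, SE, n = 2 each; limma adjusted p = 0.120). Podn, a relative of decorin, was at 3.62 and 3.64 FPKM against 6.18 and 10.8 FPKM (log2 fold change 0.99; limma adjusted p = 0.173). Ogn, or mimecan, was at 4.85 and 1.65 FPKM against 6.79 and 7.36 FPKM (log2 fold change 1.03; limma adjusted p = 0.264). Both knockout libraries lay above both wild-type libraries for 4 of the 12 tested (33.3%, against 22.7% of all genes), these 3 genes among them.

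Of 15 other basement membrane genes 13 were tested, 0 positive and 13 negative, with a median of -0.35, beside the -0.30 of collagen IV. An unadjusted p under 0.05 was found for 5, all of them lower (38.5%, against 7.01% of all genes). Lamc1, the laminin chain shared by most laminins, was at 74.8 and 54.6 FPKM against 37.5 and 40.8 FPKM (log2 fold change -0.69 ± 0.16, SE, n = 2 each; limma adjusted p = 0.173). Lamb2 was at 44.7 and 41.3 FPKM against 33.0 and 28.1 FPKM, and Lama5, the main epithelial laminin alpha chain of the lung, at 135.4 and 135.2 FPKM against 106.9 and 88.5 FPKM. Their log2 fold changes were -0.48 and -0.47 (limma adjusted p = 0.187 and 0.204). Both knockout libraries lay below both wild-type libraries for 6 of the 13 tested (46.2%, against 25.4% of all genes), these 3 genes among them. Of 14 genes of TGF-beta signalling, a pathway that induces collagen genes, 14 were tested, with a median of -0.03. Lower at an unadjusted p under 0.05 was 1, Tgfbr1 (7.14%, near the 7.01% of all genes). Tgfbr1 was at 86.1 and 84.0 FPKM against 69.7 and 61.2 FPKM (log2 fold change -0.38; limma adjusted p = 0.233), Ltbp4 had a log2 fold change of 0.49 and Ltbp1 of 0.30 (limma adjusted p = 0.418 and 0.471). Tgfbi is in this list and in that of fibril proteins, and Comp and Cspg4 also stand in cartilage and pericyte lists.

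Markers of cells known to make collagen lay in orders of libraries like those of several chains. Of 14 fibroblast markers other than collagens 12 were tested, and 12 had a positive log2 fold change, with a median of 0.78 and 9 at an unadjusted p under 0.05 (75%, against 8.36% of all genes). Meox2 and Pi16 passed the low-value filter through the knockout libraries alone, and of the other 10 tested markers 10 were positive and 7 at an unadjusted p under 0.05, with a median of 0.82. The summed FPKM of the whole list was 134.8 and 79.2 in wild-type tumours and 168.6 and 244.6 in knockout tumours, in the same order of libraries as Col6a2. Both knockout libraries lay above both wild-type libraries for 10 of the 12 (83.3%, against 22.7% of all genes) and below them for 0. For Meox2 and Pi16 this was fixed by how they passed the filter. Dpt and Mfap5, with the smallest unadjusted p, had log2 fold changes of 1.63 and 1.19 (limma adjusted p = 0.0696 for each), beside 1.23 for Col6a1. Fap was at most 0.284 FPKM and Twist2 at most 0.0307 FPKM. Pdgfrb, at 14.1 and 7.61 FPKM against 9.12 and 13.8 FPKM, overlapped, as did Cd34. Endothelial markers summed to 188 and 102 FPKM against 169 and 254 FPKM, with 10 of 10 positive and a median of 0.57. Of these, 4 were higher at an unadjusted p under 0.05 (40%, against 8.36% of all genes). By contrast, 0 of the 5 tested collagen IV chains were positive, with a median of -0.30. Smooth muscle markers summed to 59.4 and 50.4 FPKM against 69.5 and 96.7 FPKM, with 6 of 7 tested, 6 positive and a median of 0.46. Of the 6, 3 were higher at an unadjusted p under 0.05 (50%, against 8.36% of all genes). Pericyte markers had a median of 0.15, alveolar type 1 markers 0.17 and alveolar type 2 markers -0.03. At an unadjusted p under 0.05, 1 of 5 tested pericyte markers was higher (20%). So were 3 of 7 alveolar type 1 markers (42.9%) and 1 of 8 alveolar type 2 markers (12.5%), against 8.36% of all genes.

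Of 5 mesothelial markers 2 were tested, Msln and Upk3b, with a median of 1.11. Both were higher at an unadjusted p under 0.05 (100%, against 8.36% of all genes). The list summed to 1.86 and 5.90 FPKM against 8.97 and 12.03 FPKM. Erythroid markers, a sign of blood in the tissue, summed to 247 and 489.7 FPKM against 1194 and 1094 FPKM, with 5 of 6 tested and 5 positive. All 5 were higher at an unadjusted p under 0.05 (100%, against 8.36% of all genes). Of these, Hbb-bt passed the filter through the knockout libraries alone. No marker of these lists was called by limma or limma-voom. In bulk tumour RNA, more cells of a type and more RNA per cell cannot be told apart, and the part of these cells in the collagen values was not tested.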

How the data were processed

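FPKM values per gene are as the authors deposited them for the 4 libraries. Per the submitters' processing notes, TopHat2, DESeq2 and the build mm10 were used, without further detail. How reads were counted, with which annotation, lengths, filters and strand setting, is not given in the sources used here, so reads of overlapping genes on opposite strands and of near-identical copies cannot be told apart. Each gene's 4 values fitted whole reads at some length (within 0.0002 reads plus 2e-08 per read) for 21601 of 21601 genes above 0. When 500 genes were disturbed at random, 0 fitted. Reads carry no molecular identifiers, and read counts cover counting error only. A tested chain had 38 to 25885 reads per library, with a median of 765.

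Genotypes came from the labels. The comparison of genotypes used limma 3.58.1 (R 4.3.3) with log2(FPKM + 1) as input, a scale that understates changes of low genes. The fit had an intensity trend and Benjamini-Hochberg adjustment over the 13147 genes that reached an FPKM of 1 in 2 or more libraries. A call means an adjusted p under 0.05. Nothing in the labels ties a library to more than 1 pool of tumours. The limma p-values rest on the spread between these pools, combined with a spread estimated from all genes tested (2 residual and 4.12 prior degrees of freedom). They do not measure the spread between single tumours or mice. Named were Col6a1, every chain that passed the filter, and up to 3 genes with the smallest unadjusted p per pathway list. Members and lists were chosen with earlier results of these data known. Alternatives were quantile normalization, no trend, no filter, a filter at an FPKM of 5, pseudocounts of 0.1 and 10, a replicate block, leaving out each library, limma-voom on recovered reads and an adjusted p under 0.1. Coordinates and coding sequences are from the GENCODE annotation of GRCm38, and promoter windows from RefSeq (GRCm38.p6).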

Additional observations from a re-analysis of the deposited data

How the results depend on the processing

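With 2 libraries per genotype and 2 residual degrees of freedom, differences of the size of most chains' spread could not be resolved. The collagen calls numbered 1 in the reported fit and were 0 without the intensity trend and without the filter on low values, 0 to 4 on leaving out single libraries (0 without wild type 1 or 2, 4 without knockout 1: Col14a1, Col3a1, Col6a1 and Col6a2), and 1 under each other setting listed in the methods. Where a library was left out, the lone library of its genotype was assumed to vary like the other genotype's. Over all genes the calls were 15 in the reported fit, 1 without the filter, 6 by limma-voom, 65 at an adjusted p under 0.1 and 10 to 252 on leaving out single libraries (10 without wild type 1, 252 without knockout 1, 55 without knockout 2). The collagen VI median, 0.89, was 0.18 without the filter and 0.46 with a pseudocount of 10. With the replicate number as a block, 69 genes and 1 chain were called. Deviations of same-numbered libraries correlated at -0.306 over genes. With 1 difference per genotype, this cannot decide whether equal numbers pair the samples, and the labels do not say. A block on the crossed pairing, chosen after seeing the data, called 848 genes and 6 chains. FPKM rescaled to the longest coding transcript, also added after seeing the data, called 15 genes and 1 chain.

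Chains that did not pass changed sign in some alternatives, and the cause was not tested. Under quantile normalization the log2 fold changes were -0.064 for Col11a2 and 0.0096 for Col4a4. Leaving out single libraries, they ran from -0.46 to 0.38 for Col4a3, from -0.11 to 0.20 for Col11a2, from -0.79 to 0.42 for Col6a3, from -0.35 to 0.33 for Col4a4, from -0.69 to 0.087 for Col4a1, from -0.52 to 0.24 for Col5a3, from -0.36 to 0.17 for Col5a1, from -0.049 to 0.36 for Col8a2 and from -0.35 to 3.72 for Col14a1. Positive signs came without wild type 1 or knockout 1 for Col4a3, Col4a4, Col6a3, Col5a1 and Col5a3, and without wild type 1 for Col4a1. Negative signs came without wild type 1 or knockout 1 for Col11a2, without wild type 2 for Col8a2 and without knockout 2 for Col14a1. The fibrillar median stayed between 0.14 and 0.49, and the collagen IV median between -0.56 and 0.087.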
